A study of Mus musculus with 3 samples.

Results

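The 10 genes described here encode the machinery that writes and reads methylation of lysine 9 of histone H3 (H3K9), the histone mark of silent chromatin. They were taken by name from a table of 24062 gene symbols, and all 10 were found. *Setdb1*, *Ehmt1*, *Ehmt2*, *Suv39h1* and *Suv39h2* encode H3K9 methyltransferases, *Atf7ip* and *Trim28* encode partners of SETDB1, and *Cbx1*, *Cbx3* and *Cbx5* encode the heterochromatin protein 1 (HP1) isoforms β, γ and α.

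Methyl groups on H3K9 are bound by the chromodomain of HP1, which compacts chromatin and in turn recruits further methyltransferase. SETDB1 is brought to retrotransposons and imprinted regions by TRIM28, which is itself recruited by KRAB zinc finger proteins. The enzymes EHMT2 (G9a) and EHMT1 (GLP) act as a heterodimer in gene-rich regions, and SUV39H1 and SUV39H2 act at pericentromeric repeats. In the early embryo these enzymes keep transposons and germline genes silent, in cooperation with DNA methylation.

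RNA was measured by poly-A RNA-Seq in the rostrum (anterior head) of E9 mouse embryos at 18-22 somites. The *tuft* group was homozygous for *Tet1 tuft*, a spontaneous nonsense mutation in the gene of the methylcytosine dioxygenase TET1, and its embryos had neural tube closure defects. The wild-type group was the 3H1 Balb background strain without the mutation. RNA of 3 embryos was pooled into 1 library per genotype, so no value has a replicate error, no test was made and embryos cannot be told apart. The labels list 2 *tuft* samples and 1 wild-type sample, and the *tuft* column of counts was not assigned to either of its samples.

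Counts on genes totalled 14251942 for wild type, which is 2.22 times the 6433067 of *tuft*. Levels are given as counts per 1000000 counts on genes after TMM normalization (normalized CPM). Fold changes are *tuft* over wild type with a 95% Clopper-Pearson interval. This interval covers counting error only, because there is 1 pooled library per genotype. The reads carry no molecular identifiers, so counting error itself may be understated. A gene was called where the whole interval lay past 2-fold, that is under 0.5 or over 2. The mutated gene *Tet1* was counted 435 times in wild type against 32 times in *tuft*, and its fold change was 0.214 (0.145 to 0.307).

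Of 11 neuroectoderm markers of the head, 3 were called lower and 3 higher, with a summed normalized CPM of 927 in *tuft* and 665 in wild type. *Hesx1* and *Pax2* were at 0 in *tuft* and *Rax* had 2 counts against 389 in wild type, whereas *En1*, *Six3* and *Sox1* were called higher. Head mesenchyme and neural crest genes (9) summed to 644 in *tuft* and 252 in wild type, with 1 called lower and 3 higher. Those called higher were *Sox10* (fold change 11.1), *Twist1* (3.14) and *Foxc1* (2.77). *Prrx2*, at 0 in *tuft*, was called lower. *Foxd3*, also at 0 in *tuft*, had 14 counts in wild type and was not called. Surface ectoderm genes (6) summed to 884 and 520, with 1 called lower and 1 higher. Of 8 erythroid genes, 3 were called lower and 3 higher. Their sum of 40728 in *tuft* and 2796 in wild type was carried in *tuft* by the embryonic globins *Hba-x* (21165 against 1235) and *Hbb-y* (18521 against 571), whereas *Hbb-bh1* was not called (1.08, 1.04 to 1.11) and *Alas2* was called lower. *Gata1* and *Klf1* were at 0 in *tuft* and *Hba-a1* in both libraries. Yolk sac genes (11) summed to 335 in *tuft* and 2051 in wild type, with 9 called lower and *Apoa2* and *Apoa4* at 0 in *tuft*. *Afp* (fold change 0.517) and *Amn* (2.01) were not called. Endothelial genes (5) summed to 77.3 and 242, with 3 called lower and *Pecam1* at 0 in *tuft*. Heart genes (5) summed to 0.356 in *tuft*, which is 2 counts of *Myh6*, and 2.75 in wild type. Only 2 of the 5 had at least 10 counts, so these sums are too small to compare. Among all genes with at least 10 counts over both libraries, 29.8% were called lower and 17.4% higher. The part of these cell types in the values below was not tested. In bulk RNA, fewer cells of a type and less RNA per cell cannot be told apart.

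Among the 10 genes, *Setdb1*, *Suv39h2* and *Cbx1* were called lower in *tuft* and none was called higher. The 3 called genes are 30.0% of the members, against 29.8% of the 13979 genes with at least 10 counts that were called lower. Genes called higher made up 17.4% of all genes tested. The members' share called lower was therefore near the background. The median log2 fold change was -0.23 for the members and -0.45 for all genes tested. All members also belong to the 10747 genes with at least 100 counts. Of those genes 27.1% were called lower, and their median log2 fold change was -0.14. The members' median therefore lay above that of all genes tested and below that of genes with at least 100 counts. Of the members, 5 had a fold change under 1 and 5 over 1. The members ranged from a log2 fold change of -3.34 for *Setdb1* to 1.09 for *Cbx3*.

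**Figure D1:**
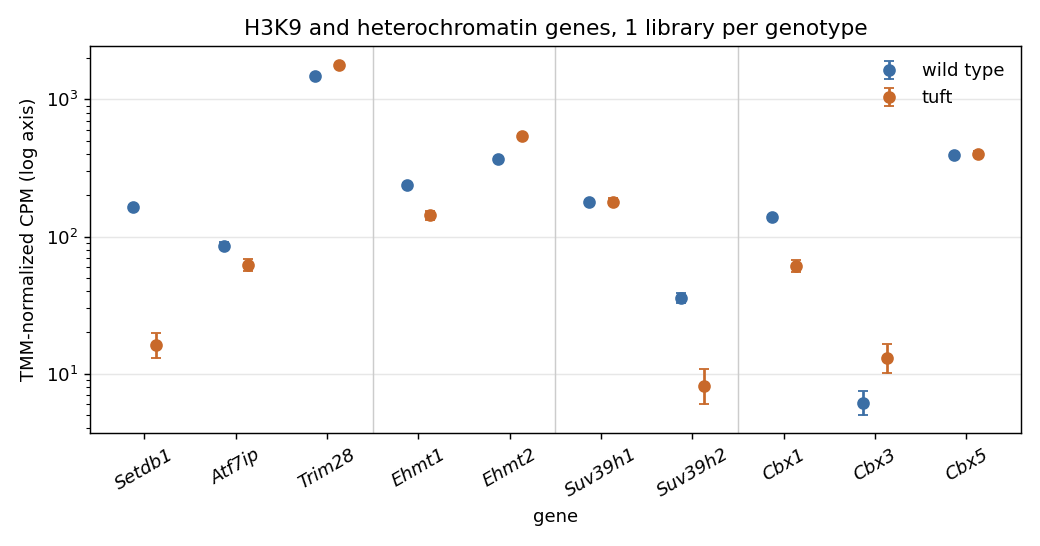
Level of each of the 10 genes in the wild-type library (blue) and the *tuft* library (orange), as TMM-normalized CPM on a log axis, with 95% counting intervals. *Trim28* was the most abundant in both libraries, and *Setdb1* shows the widest gap, from 164 in wild type to 16.2 in *tuft*.

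*Setdb1*, the methyltransferase of the TRIM28 pathway (chromosome 3 of GRCm38, 95323525 to 95357202, minus strand), had 2680 counts in wild type and 91 in *tuft*. These are 164 and 16.2 normalized CPM. The wild-type level was 10.1 times that of *tuft* (8.21 to 12.6). *Setdb1* was the only member that was called at a threshold of 4-fold as well. Among the 10747 genes of the table with at least 100 counts, 1243 (11.6%) had a lower fold change than *Setdb1*. Among all genes tested the share was 24.7%, which includes genes with few counts and none in *tuft*. The 3′ end of *Setdb1* overlaps that of *Cers2*, a ceramide synthase gene on the other strand. *Cers2* had 1693 counts in wild type and 926 in *tuft*, a fold change of 1.59 (1.47 to 1.73), and was not called. How the counting handled strand is not given, so reads of the shared stretch cannot be assigned to either gene.

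The fall of *Setdb1* was not matched by its partners, although *Atf7ip* was lower to a smaller extent. *Atf7ip*, which encodes a protein that binds SETDB1 and protects it from degradation, lies on chromosome 6 (136518789 to 136610850, plus strand). It had 1407 counts in wild type and 348 in *tuft*, or 86.1 and 62.0 normalized CPM, with a fold change of 0.720 (0.639 to 0.810). Its log2 fold change was -0.47, or -0.87 with library totals alone. *Trim28* encodes the co-repressor that links KRAB zinc finger proteins to SETDB1 (chromosome 7, 13024152 to 13031032, plus strand). It had 24362 counts in wild type and 10052 in *tuft*, or 1491 and 1791 normalized CPM, with a fold change of 1.20 (1.17 to 1.23). That direction held only with the normalization, since library totals alone gave *Trim28* a log2 fold change of -0.13. Neither gene was called.

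A ratio of 2 genes within a library needs no normalization. How far the ratio of any 2 genes moves between these libraries was not measured. The middle 50% of all genes tested had log2 fold changes from -1.73 to 0.78, so genes often differ in fold change here. There were 11 counts of *Setdb1* per 100 of *Trim28* in wild type and 0.905 in *tuft*. The ratio was 12.2-fold lower in *tuft* (9.84 to 15.2). Against *Atf7ip* the fall of *Setdb1* was 7.28-fold (5.71 to 9.36), from 190 counts per 100 of *Atf7ip* to 26.1. *Atf7ip* itself was 1.67-fold lower against *Trim28* (1.48 to 1.89). The intervals of these ratios cover counting error only and do not measure variation between embryos.

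*Ehmt1* and *Ehmt2*, whose proteins form the G9a-GLP heterodimer, lay on opposite sides of 1. *Ehmt1* (chromosome 2, 24790769 to 24919643, minus strand) had 3871 counts in wild type and 803 in *tuft*, or 237 and 143 normalized CPM. Its fold change was 0.604 (0.559 to 0.652). *Ehmt2* (chromosome 17, 34898463 to 34914073, plus strand) had 6050 counts in wild type and 3035 in *tuft*, or 370 and 541 normalized CPM. The fold change of *Ehmt2* was 1.46 (1.40 to 1.53). Neither was called, although the ratio of the pair moved. For each 100 counts of *Ehmt2* there were 64.0 of *Ehmt1* in wild type and 26.5 in *tuft*, a 2.42-fold lower ratio (2.21 to 2.64). With library totals alone, or at a threshold of 1.5-fold, *Ehmt1* was called lower too.

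The fold changes of the *Suv39h* pair differed as well. *Suv39h1* (chromosome X, 8061171 to 8074760, minus strand) had 2912 counts in wild type and 1011 in *tuft*, or 178 and 180 normalized CPM, with a fold change of 1.01 (0.940 to 1.09). Library totals alone gave it a log2 fold change of -0.38. *Suv39h2* (chromosome 2, 3455815 to 3474986, minus strand) had 583 counts in wild type and 46 in *tuft*, or 35.7 and 8.20 normalized CPM. It was called lower, with a fold change of 0.230 (0.166 to 0.310). There were 499 counts of *Suv39h1* per 100 of *Suv39h2* in wild type and 2198 in *tuft*, a 4.4-fold higher ratio (3.22 to 6.13). *Suv39h2* overlaps *Dclre1c*, the gene of the DNA repair nuclease Artemis on the other strand. *Dclre1c* spans 3424061 to 3474211, so it covers the whole span of *Suv39h2* except the stretch at its start. *Dclre1c* was called higher, with 78 counts in wild type and 236 in *tuft* and a fold change of 8.81 (6.79 to 11.5). Reads of the stretch that both genes cover cannot be told apart without the strand setting. How many reads of *Suv39h2* this concerns was not measured, so its level is uncertain.

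The composition of the 5 methyltransferase genes differed between the libraries. *Setdb1* made up 16.7% of their counts in wild type (16.1 to 17.2) and 1.83% in *tuft* (1.47 to 2.24). *Suv39h2* went from 3.62% (3.34 to 3.92) to 0.923% (0.676 to 1.23), and *Ehmt1* from 24% (23.4 to 24.7) to 16.1% (15.1 to 17.2). *Ehmt2* went from 37.6% (36.8 to 38.3) to 60.9% (59.5 to 62.2), so it held most of the methyltransferase counts in *tuft*. *Suv39h1* had 18.1% (17.5 to 18.7) and 20.3% (19.2 to 21.4).

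**Figure D2:**
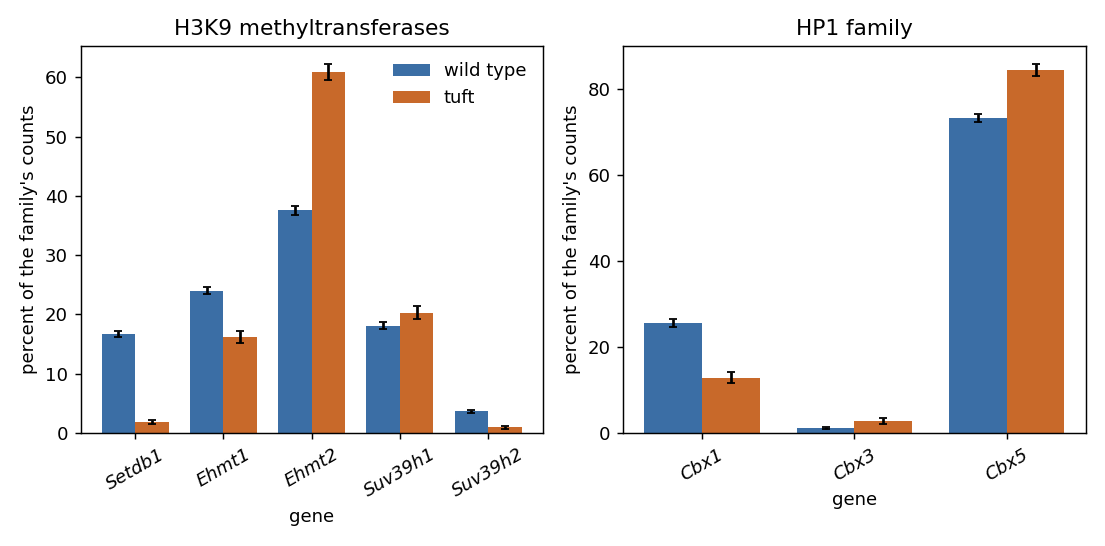
Percent of the counts of the H3K9 methyltransferases (left) and of the HP1 family (right) that fell on each gene in wild type (blue) and *tuft* (orange), with 95% Clopper-Pearson intervals. *Ehmt2* went from 37.6% to 60.9% and *Cbx5* from 73.4% to 84.4%, whereas *Setdb1* went from 16.7% to 1.83%. The share of *Cbx3* is uncertain, since most of its transcript is also found elsewhere in the genome.

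The HP1 genes encode the readers of the mark. *Cbx5* (HP1α, chromosome 15, 103191546 to 103239904, minus strand) had 6478 counts in wild type and 2256 in *tuft*, or 396 and 402 normalized CPM. Its fold change was 1.01 (0.966 to 1.06), or -0.37 on the log2 scale with library totals alone. *Cbx1* (HP1β, chromosome 11, 96788680 to 96808982, plus strand) had 2251 counts in wild type and 343 in *tuft*, or 138 and 61.1 normalized CPM. It was called lower at a fold change of 0.444 (0.395 to 0.497). The upper bound lies close to the threshold of 0.5, and with DESeq2 size factors *Cbx1* was not called. For each 100 counts of *Cbx5* there were 34.7 of *Cbx1* in wild type and 15.2 in *tuft*, a 2.29-fold lower ratio (2.02 to 2.59). *Cbx1* also overlaps *Gm11517*, a transcribed pseudogene with 36 counts in wild type and none in *tuft*. The pseudogene was called lower, by its interval at least 3.18-fold.

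*Cbx3* (HP1γ, chromosome 6, 51470154 to 51483704, plus strand) had few counts, 100 in wild type and 73 in *tuft*. These are 6.12 and 13 normalized CPM. Its fold change of 2.13 (1.55 to 2.90) was the highest of the members and was not called, since the interval reaches under 2. At a threshold of 1.5-fold, or with the fold change itself past 2-fold, it was called higher. Of all stretches of 31 bases in the longest annotated *Cbx3* transcript, 87.9% were also found elsewhere in the NCBIM37 genome, and 14 other places shared at least 100 such stretches with it. In the remaining members this share was between 0.0% and 10.05%. It was highest in *Setdb1*, where 1 other place shared at least 100 stretches. Alignments that were not unique, which were not counted on genes, made up 51.4% of all entries in wild type and 59.2% in *tuft*. How many reads of *Cbx3* were among them was not measured, so its level and its share of the family are uncertain.

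**Figure D3:**
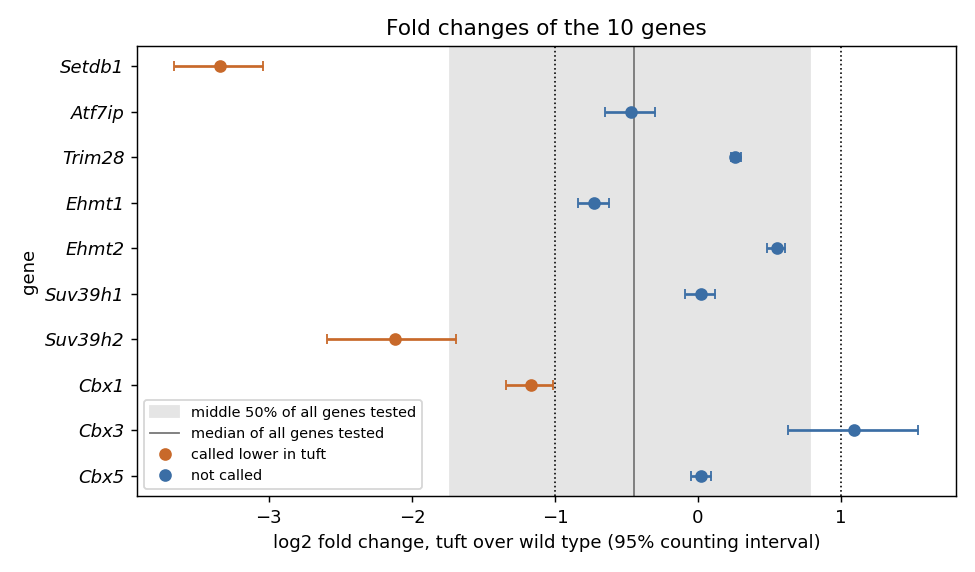
Log2 fold change (*tuft* over wild type) of each gene with its 95% counting interval. Dotted lines mark 2-fold, the grey band holds the middle 50% of all 13979 genes tested (-1.73 to 0.78) and the grey line their median (-0.45). *Setdb1* and *Suv39h2* lie below the band, *Cbx3* above it and the other 7 inside.

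Within the HP1 family, *Cbx5* made up 73.4% of counts in wild type (72.4 to 74.3) and 84.4% in *tuft* (83.0 to 85.8). *Cbx1* went from 25.5% (24.6 to 26.4) to 12.8% (11.6 to 14.2), and *Cbx3*, with the uncertainty given above, had 1.13% (0.922 to 1.38) and 2.73% (2.15 to 3.42). As levels per kilobase of the longest annotated transcript, *Cbx1* was above *Cbx5* in wild type, with 75.5 against 45.0 normalized CPM per kilobase. In *tuft* the order was the opposite, with 33.5 for *Cbx1* and 45.7 for *Cbx5*. On the same scale, *Trim28* was the most abundant member in both libraries, with 459 in wild type and 552 in *tuft*, followed by *Ehmt2* with 92.0 and 134. *Suv39h2* was lowest in *tuft* (1.89, against 8.25 in wild type) and *Setdb1* second lowest (3.48, against 35.2). In wild type *Setdb1* had been above *Atf7ip*, which had 19.0 there and 13.7 in *tuft*.

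Both HP1 genes with a heterogeneous nuclear ribonucleoprotein gene beside them share a divergent start region with it. *Hnrnpa2b1*, which encodes an RNA-binding splicing protein, begins 106 bases from *Cbx3* on the other strand. It had 6433 counts in wild type and 5817 in *tuft* and was called higher, with a fold change of 2.63 (2.54 to 2.73). *Hnrnpa1* begins 39 bases from *Cbx5* and had 387 counts in wild type and 246 in *tuft*. Its fold change was 1.85 (1.57 to 2.18), without a call, against 1.01 for *Cbx5*.

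TET1 acts on methylated cytosine in the dinucleotide CG, and DNA methylation was not measured in these libraries. RefSeq (GRCm38.p6) gives 14 start sites for the 10 members. The 250 bases before each of these starts held between 7 and 36 CG dinucleotides, and all 14 were above the median of 6 among 32851 starts of all genes, of which 92.1% held at least 1. That median was not limited to genes with counts here, so the members were not compared with other expressed genes. CG reads the same on both strands. The windows of *Setdb1* and *Suv39h2*, the members with the lowest fold changes, and of *Trim28*, which was not called, are printed 5′ to 3′ on the gene's strand with each CG in capitals. At least as many CG as in the *Setdb1* window (13) were found before 31.5% of all starts. For *Suv39h2* (27) this was 8.56%, and for *Trim28* (17) 23.5%.
*Setdb1* (chr3:95357203-95357452, minus strand): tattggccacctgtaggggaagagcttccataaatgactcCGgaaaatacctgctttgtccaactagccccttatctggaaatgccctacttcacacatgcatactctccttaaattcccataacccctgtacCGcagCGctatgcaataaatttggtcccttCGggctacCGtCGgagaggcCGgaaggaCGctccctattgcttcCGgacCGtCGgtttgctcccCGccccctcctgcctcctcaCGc
*Suv39h2* (chr2:3474987-3475236, minus strand): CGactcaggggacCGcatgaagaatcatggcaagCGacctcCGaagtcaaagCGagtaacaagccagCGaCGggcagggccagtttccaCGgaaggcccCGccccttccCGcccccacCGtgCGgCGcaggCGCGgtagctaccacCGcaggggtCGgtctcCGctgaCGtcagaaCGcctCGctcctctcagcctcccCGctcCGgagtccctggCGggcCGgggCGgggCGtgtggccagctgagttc
*Trim28* (chr7:13023902-13024151, plus strand): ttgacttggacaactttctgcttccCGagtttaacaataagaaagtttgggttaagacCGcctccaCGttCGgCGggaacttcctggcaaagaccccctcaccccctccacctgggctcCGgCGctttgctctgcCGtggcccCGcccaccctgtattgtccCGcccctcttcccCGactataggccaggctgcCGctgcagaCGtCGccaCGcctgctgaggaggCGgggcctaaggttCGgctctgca

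Across 12591 genes with an annotated transcript, Spearman's rho between the log2 fold change and the length of the longest transcript was -0.01, and with GC content -0.03. These are descriptions across genes of the same pair of libraries, and genes are not replicates.

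Genes tied to the members were described from 8 wider lists, of which 88 genes are in the table and 70 had at least 10 counts. The lists hold partners and demethylases, and also 20 germline genes that are normally silent, of which 4 had at least 10 counts. Of the 70 genes, 18 (25.7%) were called lower and 6 (8.57%) higher, beside 29.8% and 17.4% of all genes tested. Their median log2 fold change was -0.52. Each list is small, and its counts of called genes below are to be read beside these shares of all genes tested.

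In the list of SETDB1 and HUSH partners, 1 of 10 genes was called lower and 1 higher, with a median log2 fold change of -0.57. The HUSH complex guides SETDB1 to transposons. Its gene *Pphln1* was called higher, with 1140 counts in wild type and 973 in *tuft* and a fold change of 2.49 (2.28 to 2.71). The other HUSH genes, *Mphosph8* (0.591, 0.449 to 0.769) and *Fam208a* (0.496, 0.325 to 0.734), were not called, and neither was the HUSH effector *Morc2a* (0.565, 0.506 to 0.629). The called lower gene was the SETDB1 relative *Setdb2*, with 77 counts in wild type and 5 in *tuft*, which was chosen after its values were seen. The TRIM28 relatives *Trim24* (2.24, 2.00 to 2.5) and *Trim33* (1.28, 1.13 to 1.46) were not called.

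Partners of G9a-GLP went both ways. Of 8 genes, 2 were called lower and 2 higher, and their median log2 fold change was 0.52. *Zfp644*, a zinc finger partner of the heterodimer, had 497 counts in wild type and 1050 in *tuft*, a fold change of 6.15 (5.52 to 6.86). *Pcgf6*, a subunit of a polycomb complex that contains G9a and GLP, had 604 counts in wild type against 1121 in *tuft*, and its fold change was 5.40 (4.89 to 5.98). *Mga* (0.281, 0.228 to 0.344) and *L3mbtl2* (0.428, 0.378 to 0.483), of the same complex, were called lower. *Cdyl* (0.520, 0.419 to 0.640) and *Cdyl2* (1.82, 1.31 to 2.5) were not called. Among 4 PRDM genes, *Prdm16* was called higher, with 299 counts in wild type and 370 in *tuft* and a fold change of 3.6 (3.09 to 4.21), and *Mecom* (0.384, 0.273 to 0.529) and *Prdm2* (1.36, 1.25 to 1.48) were not called. The median of the PRDM genes was 0.13 on the log2 scale.

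Of 17 genes of HP1-bound and chromatin assembly proteins, 5 were called lower and 1 higher, with a median log2 fold change of -0.48. *Nipbl*, which encodes the cohesin loader, had 637 counts in wild type and 26 in *tuft*, a fold change of 0.119 (0.0770 to 0.176). *Uhrf1*, which links H3K9 methylation to maintenance of DNA methylation, had 8959 counts in wild type against 1089, and its fold change was 0.354 (0.332 to 0.377). *Smchd1* (0.356, 0.296 to 0.425), of the inactive X chromosome, was called lower too. *Incenp*, of the chromosomal passenger complex, was called higher, with 3659 counts in wild type and 2854 in *tuft* (2.27, 2.16 to 2.39). *Adnp* (1.60, 1.51 to 1.71) and *Hells* (1.16, 1.02 to 1.32) were not called.

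All 10 demethylase genes tested, which encode enzymes that act against the mark, had a fold change under 1, as did 8457 of the 13979 genes tested, and 3 of them (30.0%) were called lower. Their summed normalized CPM was 809 in wild type and 461 in *tuft*. *Jmjd1c* had 741 counts in wild type and 6 in *tuft*, a fold change of 0.0236 (0.00862 to 0.0516). *Kdm4c* had 200 counts and 1 count, a fold change of 0.0146 (0.000367 to 0.0821). *Kdm4a* (0.266, 0.232 to 0.304), with 2636 and 241 counts, was called lower as well. *Kdm3a* (0.925, 0.820 to 1.04), *Phf8* (0.889, 0.761 to 1.03) and *Kdm7a* (0.897, 0.680 to 1.17) were not called.

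Of the H4K20 methyltransferases, 1 of 3 was called lower. The SUV420H enzymes are recruited through HP1, and SETD8 places the first methyl group. The called gene was *Suv420h2*, with 881 counts in wild type and 125 in *tuft* (0.413, 0.340 to 0.499), whereas *Suv420h1* (0.802, 0.673 to 0.951) and *Setd8* (1.52, 1.41 to 1.63) were not called.

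KRAB zinc finger genes, whose proteins recruit TRIM28, were called lower in 6 of 14 cases (42.9%) and higher in 1 (7.14%). Of all genes tested, 29.8% were called lower and 17.4% higher. The list is small, and 4 of its 14 genes had no count in *tuft*. *Zfp13* had 582 counts in wild type and none in *tuft*, which is 66.6-fold lower with *tuft* set to 3 counts and at least 54.0-fold lower by its interval. *Zfp961* had 353 counts in wild type against 11, with a fold change of 0.0907 (0.0449 to 0.164), and *Zfp445*, which acts at imprinted regions, 1206 and 84, a fold change of 0.203 (0.161 to 0.253). *Zfp57*, which also protects imprints, was not called (1.16, 0.964 to 1.38), and neither was *Zkscan17* (1.37, 1.27 to 1.48). *Zfp932* was called higher, with 39 counts in wild type and 61 in *tuft* (4.55, 3.00 to 6.99).

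**Figure D4:**
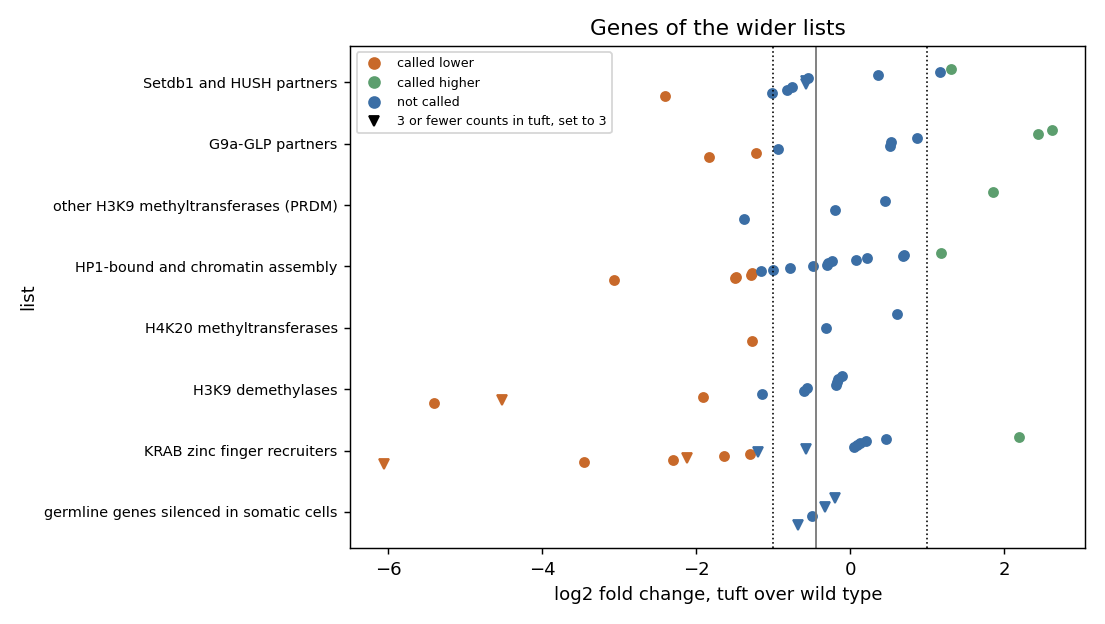
Log2 fold change (*tuft* over wild type) of each tested gene in the 8 wider lists, with genes called lower in orange, called higher in green and not called in blue. Triangles are genes with 3 or fewer counts in *tuft*, plotted with *tuft* set to 3 counts, dotted lines mark 2-fold and the grey line is the median of all genes tested (-0.45). The H3K9 demethylases all lie left of 0, with *Jmjd1c* at -5.41.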

How the data were processed

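Poly-A RNA of the rostrum was sequenced as single-end Ion Proton reads, 1 library per genotype pooled from 3 embryos. The authors trimmed the reads with PRINSEQ, aligned them to mm10 with TopHat 2.0.14 on Bowtie2 2.2.5 and deposited raw counts per gene symbol from htseq-count. Its overlap mode, strand setting and gene models are not given in the sources used here. The 5 summary lines of each table were left out of totals.

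TMM factors came from edgeR 4.0.16 (R 4.3.3, *tuft* over wild type 0.761), and all else was computed in Python 3.11.15 with scipy 1.17.1. Exact Clopper-Pearson bounds on the counts gave the fold change intervals. Their computation was checked on simulated Poisson counts. That simulation held no variation between embryos or libraries, so it cannot show how well the intervals hold for these data. Pair ratios are conditional odds ratios with exact intervals. Genes reaching 10 counts summed over the libraries were tested. NOISeq-sim, the program used by the authors, simulates its replicates and was not used, and edgeR's tests have no residual degrees of freedom here. Transcript lengths and 31-base matches came from NCBIM37, positions and start regions from RefSeq GRCm38.p6.

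The members and lists were chosen with earlier results of these data known. Named genes are the 10 members, *Tet1*, genes beside or overlapping a member, and per list the 3 lowest and 3 highest fold changes among genes with at least 100 counts. The cell type markers that are named were chosen after their values were seen. A count of 0 allows up to 3 counts, which is 0.535 normalized CPM in *tuft* and 0.184 in wild type. Alternatives were library totals, upper quartile, DESeq2 size factors (from their definition), TMM without the 10 most abundant genes, filters of 1 or 100 counts, thresholds of 1.5-fold and 4-fold, and calls without the interval.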

Additional observations from a re-analysis of the deposited data

How the results depend on the processing

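With library totals alone every log2 fold change was lower by 0.39, and the members' median moved from -0.23 to -0.62. At a threshold of 4-fold, 2218 of all genes were called lower and 970 higher in place of 4172 and 2433, 1 member lower in place of 3, and 5 genes of the wider lists lower and 2 higher in place of 18 and 6. At 1.5-fold, or without the interval, 1 member (*Cbx3*) was called higher in place of 0, and at 1.5-fold or with library totals *Ehmt1* was called lower as well, which made 4 members in place of 3. Without the interval 30 genes of the wider lists were called lower. *Setdb1* was called lower under every alternative run. *Suv39h2* was called under all of them but the 4-fold threshold, and *Cbx1* under all but that threshold and DESeq2 size factors. No paired analysis was possible because there is 1 column of counts per genotype, and for the same reason no replicate could be left out.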

Other observations

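Several genes next to a member had counts in wild type and none in *tuft*. *Chmp2a*, which encodes an ESCRT-III subunit and ends 974 bases from *Trim28*, had 680 counts in wild type and was 77.8-fold lower with *tuft* set to 3 counts, or at least 63.1-fold lower by its interval. *Arrdc1*, 5709 bases from *Ehmt1*, had 118 counts in wild type against 0 (by the interval at least 10.8-fold lower), *Slc44a4*, 151 bases from *Ehmt2*, had 49 (at least 4.39-fold) and *Anxa9*, 8345 bases from *Setdb1*, had 39 (at least 3.46-fold). Beside *Cbx1*, *Snx11* had 521 counts in wild type and 17 in *tuft*, a fold change of 0.0950 (0.0549 to 0.154), and *Nfe2l1* had 3480 and 346, a fold change of 0.290 (0.258 to 0.323). *Gm11517*, which overlaps *Cbx1*, was called lower as well, as given above. Further neighbours were tested and not called. These were *Plbd1* (fold change 1.69) beside *Atf7ip*, *Zbtb45* (1.5) beside *Trim28*, *Cacna1b* (1.3) beside *Ehmt1* and *Zbtb12* (0.988) beside *Ehmt2*. They also include *Hspa14* (1.09) beside *Suv39h2*, *Snx10* (0.574) beside *Cbx3* and *Smug1* (1.62) beside *Cbx5*. *Dclre1c* and *Hnrnpa2b1* were called higher, as given above. Of the genes tested in the whole table, 2609 of 13979 had no count in *tuft*.

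Germline genes that are normally silent in somatic cells, and whose silencing depends on H3K9 and DNA methylation, had few counts in both libraries. Of 20 genes, 19 were at 0 in *tuft*, 10 were at 0 in wild type and 4 were tested. Of all 24062 genes in the table, 12267 had no count in *tuft*. The germline gene with counts in *tuft*, *Tdrkh*, had 119 counts in wild type and 29 in *tuft*, a fold change of 0.710 (0.456 to 1.07). The summed normalized CPM of the list was 10.5 in wild type and 5.17 in *tuft*, so no rise of this list was detected at this depth.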
